A study of Homo sapiens with 6 samples.

Results

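The GLI factors form the end of the Hedgehog pathway. Their genes and others grouped with them as Hedgehog signal regulators, 10 in all, were followed here among the 57342 rows of the deposited count table. The genes were taken by symbol from that table. They are the transcription factors GLI1, GLI2 and GLI3 and the intracellular regulators SUFU, KIF7, STK36 and SPOP. The rest are the G protein-coupled receptors GPR161, GPR37L1 and GPR37. RNA was sequenced from H295R, an established human adrenocortical carcinoma line, and from H295R-PM-Ptc+, a subpopulation of that line collected by flow cytometry with an antibody to the extracellular part of Ptch1 and then amplified in culture. Both were grown untreated in the same DMEM/F12 medium with NuSerum and ITS, with 3 replicates each, and the sorted cells had been expanded before RNA was taken, so that they are no freshly sorted population. Nothing in the labels says that the replicates came from separate cultures or sorts, so p-values measure the spread between these libraries, which may be technical.

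The group names need care. PTCH1, whose protein the sort selected, had 441, 559 and 579 counts in the libraries labelled H295R and 248, 326 and 319 in those labelled H295R-PM-Ptc+, which is lower in all 3 of the latter. These counts were 21.3 ± 2.56 and 12.2 ± 2.19 CPM (normalised counts, scaled to a fixed library size, mean ± SD, n = 3 each), so that the log2 fold change was -0.81 (edgeR, adjusted p = 0.0207, standard error 0.147). Leaving out a library raised the adjusted p to 0.0799 (H295R replicate 2), 0.0921 (H295R replicate 3) or 0.0618 (H295R-PM-Ptc+ replicate 2). In the rows checked, the normalized values that the study published carry the 2 group names the other way round under the same replicate codes, and from the counts alone neither naming can be chosen. The names of the deposited table are kept here, with the sorted group written PM-Ptc+ for short. Fold changes are PM-Ptc+ over H295R under these labels, and each direction below would turn if the names were exchanged. Between 23264403 and 25813247 fragments were counted per library, and 16710 genes, all 10 followed here among them, had enough counts to be tested.

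In the absence of ligand, Patched holds back Smoothened, protein kinase A phosphorylates GLI2 and GLI3, and GLI3 in particular is cut to a repressor. When a Hedgehog ligand binds Patched, Smoothened enters the primary cilium, GLI proteins leave their complex with SUFU at the ciliary tip, and full-length GLI2 and GLI3 activate targets that include PTCH1 and GLI1 themselves. In the adrenal gland the pathway is best known for signals between the cortex and the capsule during development.

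Promoter windows were available for 7 of the 10 genes (RefSeq, GRCh38.p14, 300 bases from 250 before to 50 after a start), as 14 windows, and for GLI1, GLI3 and GPR37 none was given. The windows were searched on both strands for the GLI binding sequence TGGGTGGTC and for its core GGGTGG, which the longer sequence contains. No window of the 7 genes held the full sequence, which occurs in 0.236% of all 35116 windows. The core was present in 6 windows of 4 genes, GLI2, GPR161, SPOP and STK36. It occurs in 34.3% of all windows and 38% of all genes, so a match to these 6 bases is common. Windows of the same gene can overlap, and the 2 windows of SPOP hold the same site, so the windows are not independent. A pair of windows is shown: 1 of the 2 windows of GLI2, the GLI factor whose call depended on the fit, with the core in capitals (it starts at position -163 from the annotated start), and that of GPR37L1, the gene with the largest fold change, which holds neither sequence. The first lies at chr2:120735618-120735917 on the plus strand and the second at chr1:202122667-202122966 on the plus strand.
GLI2: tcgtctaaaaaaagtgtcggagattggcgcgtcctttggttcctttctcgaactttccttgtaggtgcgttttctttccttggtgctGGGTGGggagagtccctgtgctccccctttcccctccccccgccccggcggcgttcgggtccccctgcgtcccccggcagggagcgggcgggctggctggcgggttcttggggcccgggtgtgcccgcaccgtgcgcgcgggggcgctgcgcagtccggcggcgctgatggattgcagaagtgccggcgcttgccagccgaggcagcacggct
GPR37L1: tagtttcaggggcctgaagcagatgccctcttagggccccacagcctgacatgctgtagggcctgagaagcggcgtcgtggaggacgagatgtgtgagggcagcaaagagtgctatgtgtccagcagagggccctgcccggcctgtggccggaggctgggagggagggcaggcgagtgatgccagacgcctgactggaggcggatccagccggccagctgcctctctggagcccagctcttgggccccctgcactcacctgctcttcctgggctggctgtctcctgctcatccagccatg
The GLI2 window shown is 68.3% G and C with 31 CpG dinucleotides, and the other GLI2 window, at chr2:120792031-120792330, holds no core and is 46.3% G and C with 7, while the GPR37L1 window is 65.3% G and C with 10, where the median of all windows is 58.7% and 14. These are descriptions of sequence and no binding was measured.

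Of the 10 genes, GPR37 and GPR37L1 were higher in the libraries labelled PM-Ptc+ with an adjusted p under 0.05, and the other 8 did not pass, in a fit in which 3.73% of all tested genes passed, 2.42% higher and 1.32% lower. Entering the replicate number as a block, since same-numbered libraries of the groups deviated together, added GLI2 as lower, which makes 3 of 10 where 22.5% of all genes passed (12.1% higher, 10.4% lower). GPR37L1 passed the filter on low counts only through the libraries labelled PM-Ptc+, so its call is not comparable with these shares. For 2 of the 10 genes the values of the groups did not overlap, and the same held for 23.5% of all genes tested. In bulk RNA, fewer cells that express a gene and less of its RNA per cell cannot be told apart. Over the 10 genes 5 fold changes were above 0 and 5 below, with a median log2 of 0.02, and over all genes the median was 0.00. In the plot of CPM by library GPR37 and GPR37L1 are the genes whose groups separate.

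**Figure D1:**
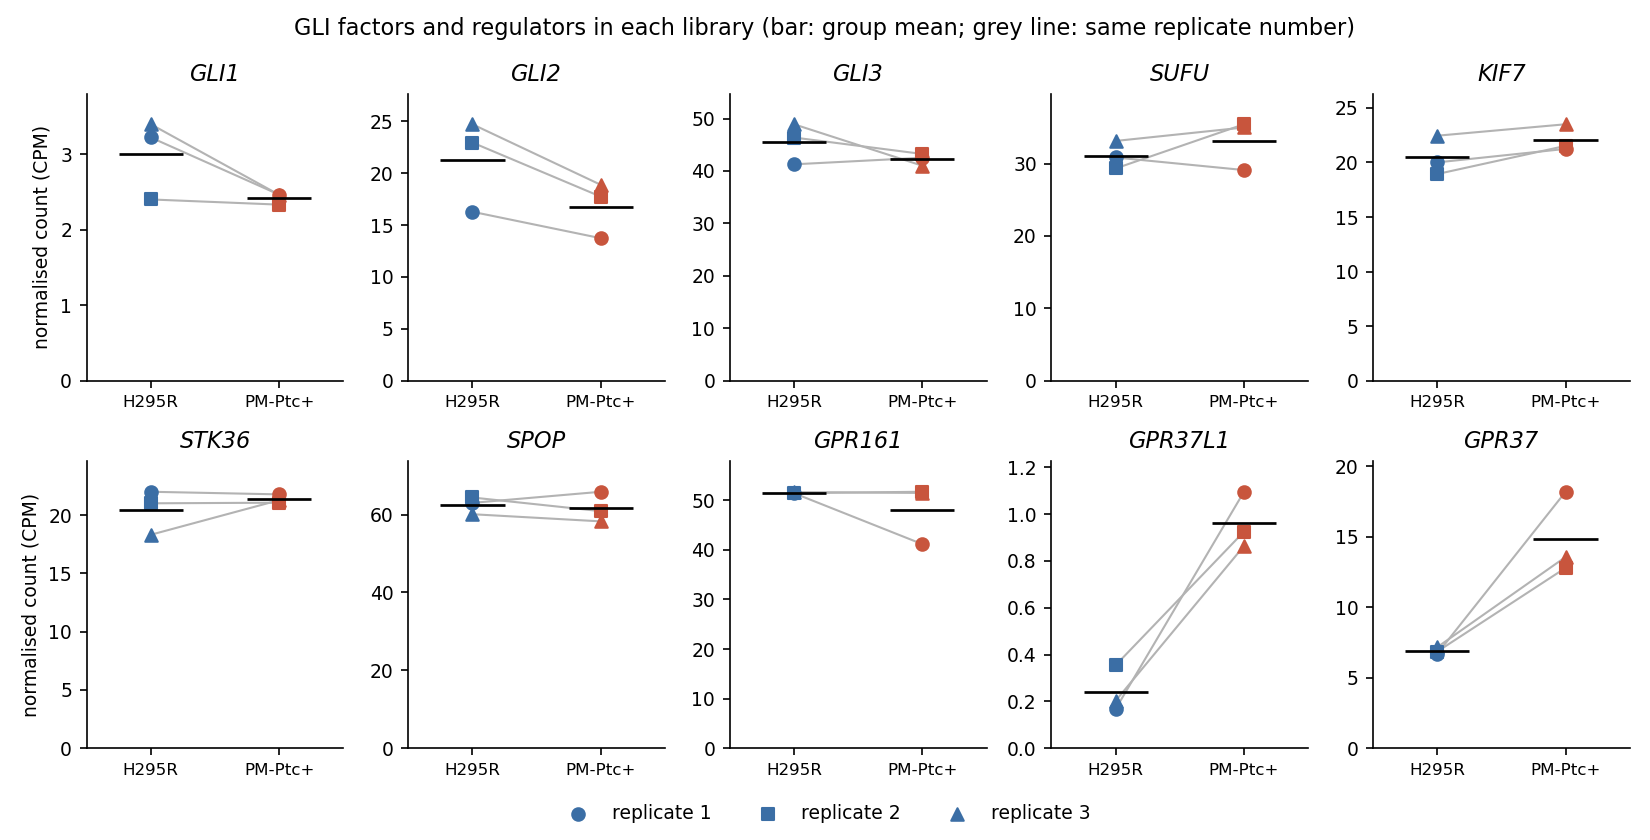
Normalised counts (CPM, vertical axes from 0) of the 10 genes in each of the 6 libraries, with the group on the horizontal axis, a bar at each group mean and a grey line between libraries of the same replicate number. GPR37 lies between 6.70 and 7.16 CPM in the libraries labelled H295R and between 12.8 and 18.2 in those labelled PM-Ptc+, while GLI2 is lower in each pair although its groups overlap.

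GLI1 (chromosome 12 from 57460135 to 57472262, plus strand, hg38) is an activator that is itself a target of the pathway, and it was the least abundant GLI factor. Its counts were 77, 61 and 84 in the libraries labelled H295R and 63, 58 and 57 in those labelled PM-Ptc+, or 3.01 ± 0.532 and 2.42 ± 0.0754 CPM (SD, n = 3 each). The groups overlapped, although in each of the 3 pairs with a shared replicate number the PM-Ptc+ label had the lower value. The log2 fold change was -0.31 (95% interval -0.71 to 0.09, adjusted p = 0.425, and 0.204 with the block), and the interval holds values on both sides of 0.

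GLI2 (chromosome 2 from 120735623 to 120992653, plus strand), the main activator of the family, was lower in each pair but passed the test in 1 of the 2 designs. Its values were 16.3, 23.0 and 24.7 CPM in the libraries labelled H295R and 13.7, 17.7 and 18.9 CPM in those labelled PM-Ptc+. Replicate 1 was the lowest library of both groups, and the groups overlapped. Without the block the log2 fold change was -0.35 (95% interval -0.73 to 0.04, standard error 0.171, adjusted p = 0.349), and with a library left out it lay between -0.51 (without H295R replicate 1) and -0.23 (without PM-Ptc+ replicate 1), not called in any of these fits. With the replicate block it was -0.34 (standard error 0.0713, interval -0.49 to -0.19, adjusted p = 0.00265), the size being alike and the error smaller. The differences within the pairs were -0.24, -0.37 and -0.39 on the log2 CPM scale.

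GLI3 (chromosome 7 from 41960950 to 42237870, minus strand), the source of the main repressor form, was the most abundant of the family. It was measured at 41.3, 46.4 and 48.9 CPM in the libraries labelled H295R and at 42.5, 43.2 and 41.0 CPM in those labelled PM-Ptc+. All 3 libraries labelled PM-Ptc+ lay within the range of the other group's values or just below it. The log2 fold change was -0.11 (95% interval -0.30 to 0.08, adjusted p = 0.577, and 0.251 with the block), and reads of the full-length and the cut protein come from the same RNA, so the table holds nothing on GLI3 processing.

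Per length (TPM, counts divided by gene length and scaled to a fixed library sum, from the exon lengths in the table), the GLI factors summed to 31.4 ± 4.24 TPM in the libraries labelled H295R and 28.5 ± 1.45 TPM in those labelled PM-Ptc+ (SD, n = 3 each). GLI3 made up 60.1%, 57.8% and 56.1% of that sum in replicates 1 to 3 labelled H295R and 65.4%, 61.3% and 58.6% in those labelled PM-Ptc+. Its share was higher in each of the 3 pairs, while the groups overlapped. GLI2 accounted for 33.5 ± 3.43% and 30.5 ± 3.76%, lower in each pair, and GLI1 for 8.48 ± 1.87% and 7.78 ± 0.527%. The ratio of GLI3 to GLI2 (TPM) was 1.75 ± 0.248 and 2.06 ± 0.382, with overlapping groups. The ratio of the target genes GLI1 and PTCH1 (TPM) was 0.689, 0.431 and 0.573 in the libraries labelled H295R against 1.00, 0.702 and 0.705, which do not overlap. These shares and ratios are descriptions without a test.

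**Figure D2:**
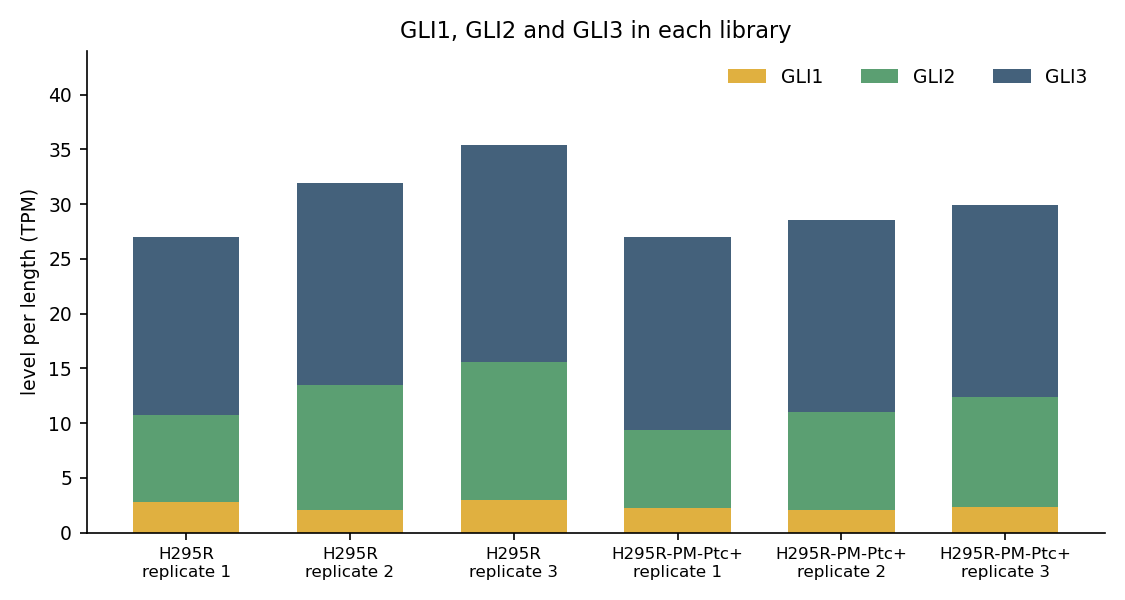
Levels of GLI1, GLI2 and GLI3 per length (TPM, vertical axis from 0) stacked for each of the 6 libraries. GLI3 forms the largest segment in each library, from 56.1% to 65.4% of the sum, and GLI1 the smallest, from 6.57% to 10.3%.

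Among the intracellular regulators no call was made. SUFU, KIF7, STK36 and SPOP had log2 fold changes between -0.02 and 0.11, 0 of 4 passed with edgeR, and none of the 4 had an unadjusted p under 0.05 with edgeR or an adjusted p under 0.05 with DESeq2, limma-voom or the replicate block. SUFU (chromosome 10 from 102503987 to 102633535, plus strand), which binds GLI proteins and keeps them out of the nucleus, had 30.8, 29.3 and 33.1 CPM in the libraries labelled H295R and 29.1, 35.4 and 35.0 CPM in those labelled PM-Ptc+. Its lowest value stood in a library labelled PM-Ptc+, as did its highest. On the log2 scale the fold change was 0.09 with a 95% interval from -0.13 to 0.31 (adjusted p = 0.708). Relative to the sum of the GLI factors (TPM), SUFU stood at 0.536 ± 0.0604 and 0.651 ± 0.0421, with overlapping groups.

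KIF7 (chromosome 15 from 89608789 to 89655451, minus strand) is the kinesin that organises the tip of the primary cilium. Its levels were 20.0, 18.9 and 22.5 CPM in the libraries labelled H295R and 21.2, 21.5 and 23.5 CPM in those labelled PM-Ptc+, so that each pair was higher in the latter while the groups overlapped. The log2 fold change was 0.11 (interval -0.10 to 0.32, adjusted p = 0.629, and 0.266 with the block). KIF7 shares 589 exon bases with TICRR on the opposite strand, which had 1229 to 1853 counts per library, overlapping between the groups. Which strand setting made the deposited counts could not be settled, so values of genes with a partner on the opposite strand are uncertain, and the part of TICRR in the KIF7 counts was not tested.

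STK36 (chromosome 2 from 218672026 to 218702716, plus strand), the human relative of the fly kinase Fused, was at 22.0, 21.0 and 18.3 CPM in the libraries labelled H295R and 21.8, 21.1 and 21.3 CPM in those labelled PM-Ptc+. The 3 latter values lay within the range of the former. Its log2 fold change of 0.06 (interval -0.14 to 0.27, adjusted p = 0.797) turned to -0.020 without the library labelled H295R replicate 3, so no direction can be given. STK36 shares 260 exon bases with RNF25 on the opposite strand, whose 328 to 395 counts overlapped between the groups.

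SPOP (chromosome 17 from 49598884 to 49678234, minus strand), the cullin-3 adaptor that sends GLI2 and GLI3 to the proteasome, was the most abundant of the 10 genes. It was measured at 63.0, 64.4 and 60.1 CPM in the libraries labelled H295R and 65.9, 60.9 and 58.3 CPM in those labelled PM-Ptc+, where the highest and the lowest value of all 6 both lie. Its log2 fold change was -0.02 with an interval from -0.19 to 0.15 (adjusted p = 0.936), the narrowest interval of the 10 genes, and its sign turned with 2 of the 6 libraries left out in turn.

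GPR161 (chromosome 1 from 168079543 to 168137667, minus strand) is a ciliary receptor coupled to Gs that raises cAMP and thereby protein kinase A activity. Its values in the libraries labelled H295R were 51.4, 51.5 and 51.7 CPM, and those labelled PM-Ptc+ held 41.2, 51.7 and 51.5 CPM. A single library, PM-Ptc+ replicate 1, stood below the other 5. The log2 fold change was -0.10 (interval -0.32 to 0.12, adjusted p = 0.686) with that library and -0.0043 without it.

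GPR37 (chromosome 7 from 124745997 to 124765627, minus strand), a receptor best known from brain and a substrate of the ubiquitin ligase parkin, had the smallest adjusted p of the 10. It had 160, 174 and 177 counts in the libraries labelled H295R and 465, 318 and 314 in those labelled PM-Ptc+, or 6.90 ± 0.236 and 14.8 ± 2.92 CPM (SD, n = 3 each). All libraries labelled PM-Ptc+ lay above all libraries labelled H295R, with replicate 1 the highest. The mean was 2.15-fold higher, a log2 fold change of 1.11 (standard error 0.148, 95% interval 0.77 to 1.44, adjusted p = 0.00440). Leaving out any 1 library kept the log2 fold change at 0.93 to 1.20 and the adjusted p at 0.0269 or less. The 50 nearest tested genes on chromosome 7 had a median log2 fold change of 0.10, with 31 above 0 and 4 called, and GPR37 lay 1.00 above that median.

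GPR37L1 (chromosome 1 from 202122858 to 202133592, plus strand), the closest relative of GPR37 and a receptor of glial cells that has been linked with Patched in the cerebellum, was near the limit of detection and also higher. Its counts were 4, 9 and 5 in the libraries labelled H295R and 28, 23 and 20 in those labelled PM-Ptc+, or 0.241 ± 0.0994 and 0.962 ± 0.120 CPM, and the groups did not overlap. The mean was 3.98-fold higher, a log2 fold change of 1.97 (standard error 0.329, 95% interval 1.22 to 2.71, adjusted p = 0.0138). Leaving out H295R replicate 3 moved that adjusted p to 0.0769, and leaving out PM-Ptc+ replicate 2 to 0.0539. None of the libraries labelled H295R passed the filter on low counts for this gene, so it entered the test through those labelled PM-Ptc+ and had to differ to be tested. With no filter the adjusted p was 8.32e-04. The study picked this gene from the same libraries, under the exchanged group names, so its choice is no independent evidence of a difference or of a direction.

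**Figure D3:**
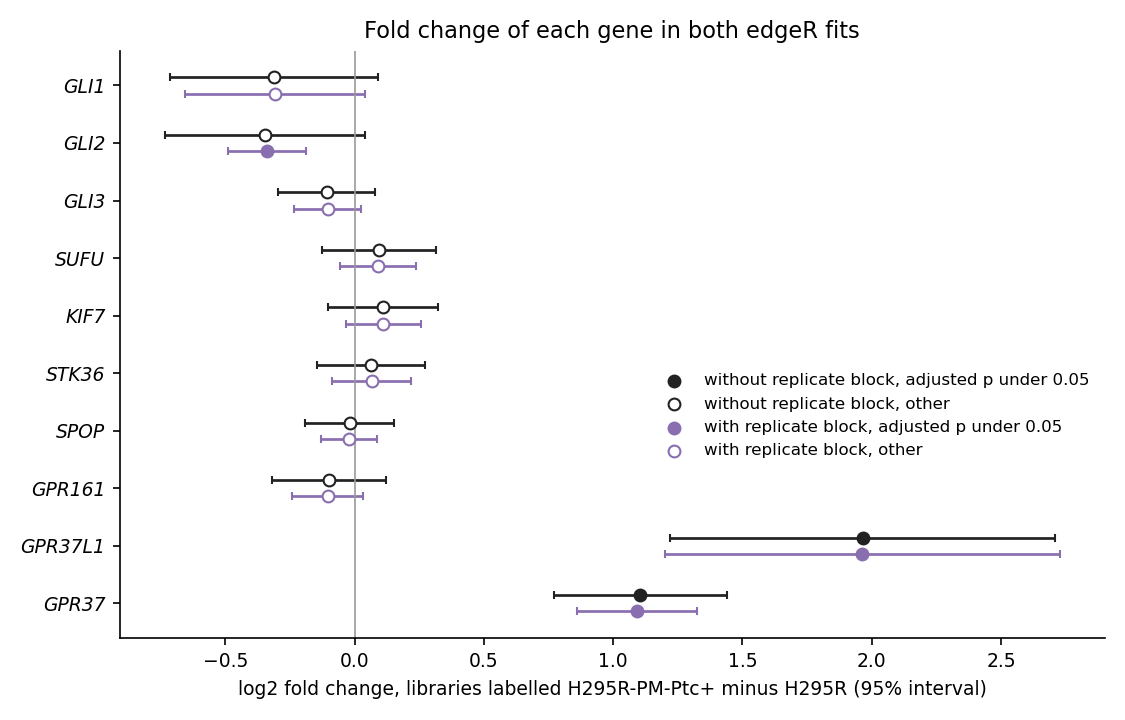
Log2 fold change of each gene (horizontal axis, libraries labelled PM-Ptc+ minus H295R) with its 95% interval, without the replicate block in black and with it in purple, filled where the adjusted p was under 0.05. GPR37 (1.11) and GPR37L1 (1.97) are filled in both fits and GLI2 with the block alone (-0.34), and the intervals of the other 7 genes include 0.

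The fold changes of the other 9 genes were set beside those of their neighbours in the same way as for GPR37. The median of the 50 nearest tested genes lay between -0.07 and 0.04 on the log2 scale for each, with at most 3 of the 50 called. GLI2 had 29 neighbours below 0 and 21 above and lay 0.32 below their median of -0.03.

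Per length, SPOP led in both groups and GPR37L1 came last. In the libraries labelled H295R the order of the levels (TPM, mean ± SD, n = 3) was SPOP with 36.1 ± 0.901, GLI3 with 18.2 ± 1.84, GPR161 with 16.9 ± 0.321, SUFU with 16.7 ± 1.25, KIF7 with 15.1 ± 1.54, STK36 with 11.7 ± 0.903, GLI2 with 10.6 ± 2.36, GPR37 with 8.42 ± 0.430, GLI1 with 2.64 ± 0.483 and GPR37L1 with 0.135 ± 0.0554. The ranges of neighbours from GLI3 to KIF7 overlapped, so the order within that run is not resolved. GLI2 overlapped with STK36 above it and with GPR37 below it, while STK36 lay wholly above GPR37. Among the libraries labelled PM-Ptc+ the order was SPOP (37.1 ± 2.14), GPR37 (18.9 ± 3.75), SUFU (18.6 ± 2.04), GLI3 (17.5 ± 0.0750), KIF7 (17.0 ± 1.37), GPR161 (16.5 ± 2.13), STK36 (12.7 ± 0.445), GLI2 (8.71 ± 1.49), GLI1 (2.21 ± 0.122) and GPR37L1 (0.560 ± 0.0669), all in TPM. There the run from GPR37 to GPR161 overlapped between neighbours, and the other steps did not. GPR37 thus moved from the eighth place to the run below SPOP. The ratio of GPR37 to GPR37L1 (TPM) was 68.9 ± 23.7 and 33.5 ± 3.09, with both receptors higher in the libraries labelled PM-Ptc+, and the difference between their fold changes was not tested. The exon length covers all transcripts of a gene, so a gene read mainly from a short transcript is understated on this scale.

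**Figure D4:**
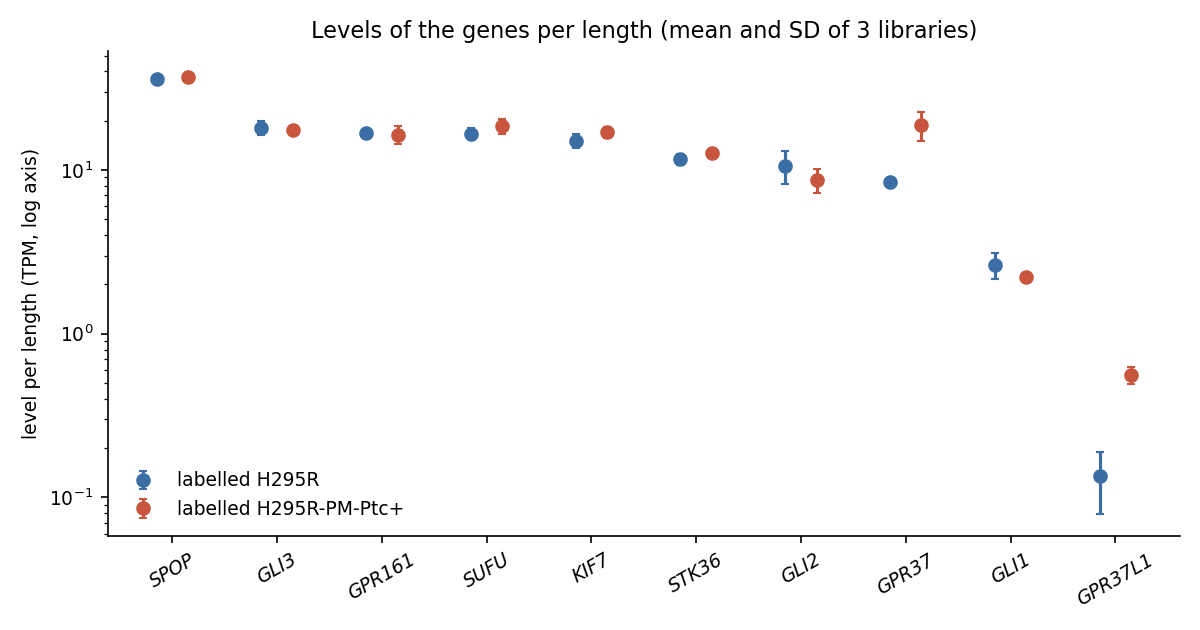
Levels of the 10 genes per length (TPM, log axis) as mean and SD of 3 libraries per group, ordered by the level in the libraries labelled H295R. SPOP is highest at 36.1 and 37.1 TPM, GLI1 lies at 2.64 and 2.21, and GPR37L1 is lowest at 0.135 and 0.560.

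The genes whose log2 CPM followed those of GPR37, GPR37L1 and GLI2 most closely over the 6 libraries were taken by Pearson's r, given as a description since the 6 points share the difference between the groups. For GPR37 these were CTSB (r = 0.998), PRSS56 (0.998) and CD36 (0.997), and 15 tested genes had an r over 0.99. GPR37L1 was followed most closely by MCOLN2 (0.995), CTTNBP2 (0.995) and PTGER3 (0.995), with 7 genes over 0.99. GLI2 had MBNL2 (0.996), MEGF10 (0.994) and MFN1 (0.994) nearest, with 8 genes over 0.99.

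The other genes of the pathway were counted in lists, 95 genes in all, of which 81 were tested. Of these, 7 passed (8.64%, where 3.73% of all genes did), 5 higher and 2 lower, and the median log2 fold change was 0.03. The replicate block raised the count to 21 (25.9%, where 22.5% of all genes passed), 14 higher and 7 lower. Single libraries moved the count of 7: it was 3 when H295R replicate 2 was left out, 2 for H295R replicate 3, 3 for PM-Ptc+ replicate 2 and 4 for PM-Ptc+ replicate 3. Upstream of the 10 genes, 3 of 7 tested receptor genes passed, and 5 with the block. BOC, a coreceptor for the ligands, was higher (log2 fold change 1.47, adjusted p = 0.00843), while GAS1, another coreceptor (-0.94, adjusted p = 0.00845), and PTCH1 were lower. The signal transducer SMO was measured at 97.1 ± 13.4 and 86.4 ± 0.782 CPM (log2 fold change -0.17, adjusted p = 0.449). Among 5 tested genes for ligands and their release, DISP2, which belongs to the Dispatched family, was higher (0.72, adjusted p = 0.0413), and SHH, the ligand itself, was at 10.6 ± 2.58 and 7.07 ± 0.432 CPM (log2 fold change -0.59, adjusted p = 0.120, and 0.00244 with the block, which called 3 of the 5).

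The partners that act on the GLI factors directly were counted next, beside the 3.73% of all genes that passed and the 22.5% with the block. Of 17 genes for protein kinase A subunits and GLI kinases, GSK3A was higher (log2 fold change 0.35, adjusted p = 0.0389) and 16 did not pass, while the block called 4 genes of this list, all higher. In 12 genes of the ubiquitin ligases that act on GLI proteins edgeR made 0 calls, with 0 at an unadjusted p under 0.05, 0 with DESeq2 and 0 with limma-voom, and the block called FBXW11 (0.15, adjusted p = 0.0365). The largest differences of that list were in KCTD11 (0.21), FBXW11 and BTRC (0.13), and SPOPL, the paralog of SPOP, stood at -0.05. Of 17 tested genes of ciliary Hedgehog regulation, edgeR called 0, with 1 at an unadjusted p under 0.05 and 0 each with DESeq2 and limma-voom. Of that list KIF3A (log2 fold change 0.23) and WDR19 (-0.17) were among the 3 genes that passed with the block.

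For GPR37 and GPR37L1, the genes of the reported ligand and of partners were read as well, and none was called by edgeR. PSAP, which encodes prosaposin, the proposed ligand of both receptors, was at 1728 ± 33.2 and 1820 ± 64.2 CPM (log2 fold change 0.07, adjusted p = 0.697). PARK2, the gene of parkin, was at 1.92 ± 0.246 and 2.04 ± 0.202 CPM (0.09, adjusted p = 0.876). Of the 5 genes in this list edgeR called 0, with 0 at an unadjusted p under 0.05, 0 with DESeq2, 0 with limma-voom and 0 with the block.

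Downstream, 16 Hedgehog target genes other than GLI1 were tested, and 2 passed (12.5%, where 3.73% of all genes did). SPP1, which encodes osteopontin, was higher (17.6 ± 1.88 and 42.7 ± 1.26 CPM, log2 fold change 1.28, adjusted p = 3.93e-04) and PTCH1, counted also among the receptors, was lower. The block gave 6 calls (37.5%, where 22.5% of all genes passed), 2 higher and 4 lower. CCND2, a cyclin of the G1 phase, stood at -0.42 (adjusted p = 0.0809, and 5.56e-06 with the block), FOXF1 at -0.57 (0.0850, and 0.0253 with the block) and HHIP, the decoy receptor, at -0.92 (0.313, and 0.0375 with the block). Besides SPP1, the block called BMP4 higher, at 0.21 (adjusted p = 0.271, and 0.00358 with the block). The list had 8 fold changes above 0 and 8 below. Of 5 tested zinc finger genes related to the GLI factors, ZIC1 was higher (0.70, adjusted p = 0.0206), the 1 call of this list in both fits.

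**Figure D5:**
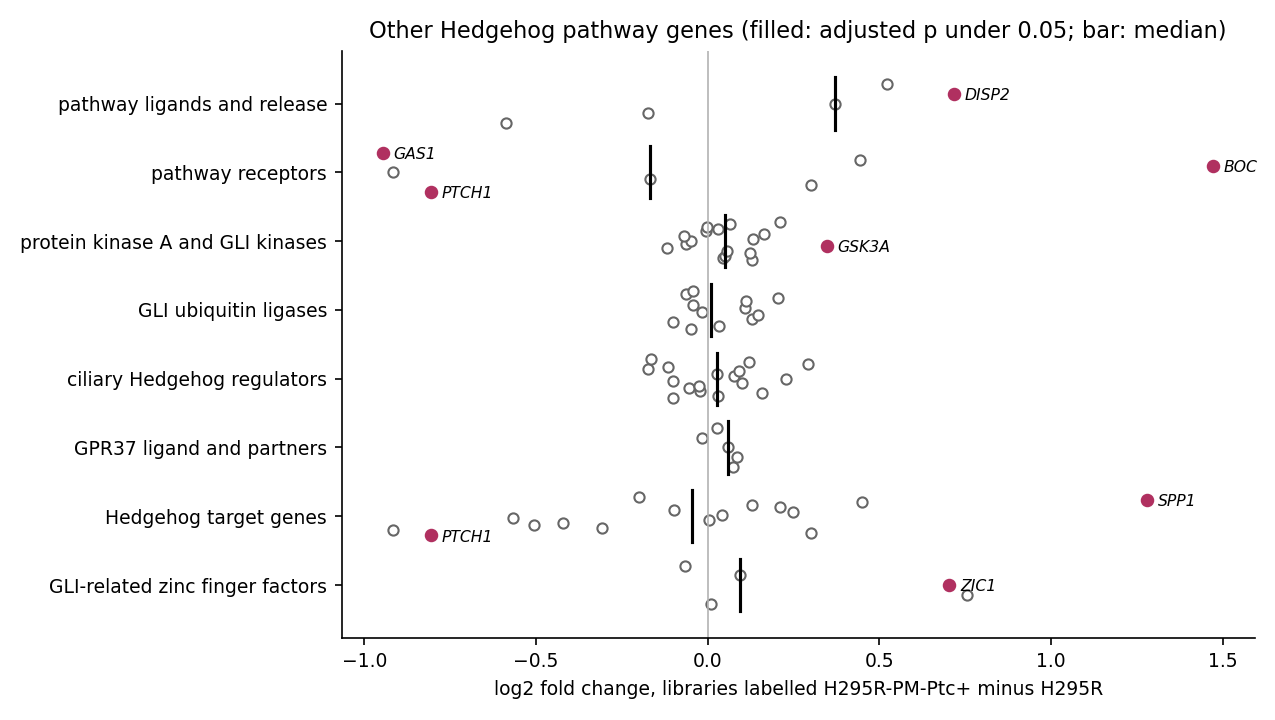
Log2 fold change (horizontal axis, libraries labelled PM-Ptc+ minus H295R) of each tested gene of the other pathway lists, filled and named where the adjusted p was under 0.05, with a bar at each list's median. Receptors, ligands and targets spread from -0.94 to 1.47, while the 12 ubiquitin ligase genes stay within -0.10 and 0.21.

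The labelled cell type was checked with 12 adrenocortical markers. NR5A1, the transcription factor that defines steroidogenic cells, was at 367 and 351 CPM, STAR, which delivers cholesterol to mitochondria, at 298 and 397 CPM, and CYP17A1 at 133 and 122 CPM, in the libraries labelled H295R and PM-Ptc+. CYP11B1 had at most 3 counts in any library. The summed marker level was 1047 to 1305 CPM in the libraries labelled H295R and 1148 to 1446 CPM in the others, with CYP21A2 and SULT2A1 called higher. Since GPR37 and GPR37L1 are best known from glia, glial markers were read beside them: MOG and SOX10 had no count in any library, and GFAP, AQP4, MBP, OLIG1 and OLIG2 had at most 6 counts each. Among 6 chromaffin markers DBH and PNMT were among those with no count, and CHGB, a granule protein, made up most of the sums, at 71.4 and 54.3 CPM (adjusted p = 0.0579). The sums were 65.2 to 76.7 and 51.5 to 61.2 CPM. The 8 fibroblast and vascular markers summed to 7.76 to 9.10 and 9.35 to 11.1 CPM, with LUM at 0, and the 5 leukocyte markers to 0.850 to 1.34 and 1.86 to 2.03 CPM, with PTPRC at 0. The sums of the glial and of the chromaffin list were lower in all libraries labelled PM-Ptc+ than in those labelled H295R, those of the fibroblast and vascular and of the leukocyte list were higher in all of them, and the part of such cells in the differences above was not tested.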

How the data were processed

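RNA of 3 libraries labelled H295R and 3 labelled H295R-PM-Ptc+ was sequenced in paired reads. The authors mapped reads to hg38 with STAR 2.4.0a and counted fragments per gene name of an Ensembl annotation with featureCounts (Subread 1.5.0-p3 per the submitters' processing notes), with multiply mapped reads kept at their primary position, and deposited raw counts without normalization. The kit is named as an mRNA kit in the methods and as a total RNA kit in the labels. The methods give strand setting 1, while kits of this type are usually counted with the opposite setting, and which one made the deposited counts is not settled, so genes that overlap another on the opposite strand are uncertain. The deposited table also holds the exon length of each gene, which was used for TPM.

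Counts were filtered with filterByExpr (minimum count 10), scaled by TMM and tested for a group effect with no other term by edgeR's quasi-likelihood F-test (edgeR 4.0.16, R 4.3.3, two-sided), with p-values adjusted by Benjamini-Hochberg over 16710 genes and a threshold of 0.05. The 57342 rows include 1 row without a gene name. Standard errors came from the same fit, and log2 CPM used a prior count of 2. The script was tested on simulated data. Same-numbered replicates were taken as pairs, because, across genes, their departures from the mean log2 CPM of each group correlated (r = 0.497, 0.307 and 0.228, against -0.352 to 0.150 for libraries of different number). Same-numbered libraries share a code whose meaning the labels do not give. Alternatives were this replicate block, DESeq2 1.42.0, limma-voom (limma 3.58.1), relative log expression size factors, no filter, a filter of at least 10 counts in all libraries, and fits without each library. The main fit had no block, since the study's methods name none.

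All 10 genes and PTCH1 were named. Of the pathway lists, genes with an adjusted p under 0.05 and otherwise up to 3 with the largest fold change were named. SMO, SHH, SPOPL, CCND2 and BMP4 were named besides, chosen after their values were seen. For the 3 genes with the smallest adjusted p, the 3 genes of highest correlation were named. Some genes of the lists are not reported here. The genes and lists were chosen with earlier results of these data known. Precision is limited by 3 libraries per group and, for GPR37L1, by its low counts.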

Additional observations from a re-analysis of the deposited data

How the results depend on the processing

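The test gave 2 of the 10 genes, and 1 when at least 10 counts were required in every library, where GPR37L1 could not be fitted because it was filtered out. Leaving out 1 library at a time gave 1 to 2. The replicate block gave 3 by adding GLI2 (log2 fold change -0.34) and changed no other call among the 10 genes and PTCH1. For the other pathway genes the count of 7 became 12 with no filter and 21 with the block, and 2 to 9 with a library left out, and for all genes the count of 624 became 1111, 3758 and 219 to 810. PTCH1 lay between -0.91 and -0.67 on the log2 scale with a library left out. The sign turned for STK36 (range -0.020 to 0.119) and SPOP (-0.076 to 0.011), at -0.020 without H295R replicate 3 for the former and at 0.0022 without H295R replicate 2 and 0.011 without H295R-PM-Ptc+ replicate 3 for the latter; neither was called in any of the 12 alternative fits. GPR37 was called in all 12. GPR37L1 was called in 9 of its 11 and had log2 fold changes of 1.77 to 2.35 with a library left out. The causes of these changes were not tested.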
